A study of Mus musculus with 24 samples.

Results

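The genes described here lie on a piece of the mitochondrial genome that sits in the nuclear genome of the mouse, on chromosome 1. They are the 6 genes Gm29216, Gm28661, Gm10925, Gm28437, Gm28438 and Gm28439, found by symbol, out of 55254 genes counted in each of 24 libraries. They were selected on measured values of these same libraries, with earlier results known, and which comparison guided the choice was not recorded. The levels and fold changes below are therefore descriptions of these genes, and no p-value given for them is independent evidence.

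RNA was sequenced from nuclei of the hippocampus, sorted by staining for the neuronal nuclear protein NeuN into NeuN+ nuclei, mainly of neurons, and NeuN- nuclei, mainly of glia. The mice were male, aged 6 months and on a C57BL/6N background, and were WT, Mutyh-/-, Ogg1-/- or lacked both genes (Mutyh-/-xOgg1-/-, here DKO), with 3 libraries for each genotype and nuclear fraction. Ogg1 and Mutyh are DNA glycosylases that start the repair of oxidized guanine and of adenine mispaired with it, in nuclei and in mitochondria. The comparisons ask how nuclear RNA in neurons and in other cells differs when either or both are lost. For each genotype the nuclei of 3 animals were pooled, and whether the 3 libraries of a group came from separate animals, separate pools or parts of 1 pool is not clear from the sources used here, so the spread between them may be technical. NeuN+ and NeuN- libraries ran on different sequencing lanes, so lane and nuclear fraction cannot be told apart.

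Total counts ranged from 56563586 to 96192142 per library. Of 8 neuronal markers, 7 were called higher in NeuN+ than in NeuN- WT nuclei, and all 6 astrocyte, 5 oligodendrocyte and 5 microglial markers were called lower. Counts over the whole Ogg1 gene did not set the knockouts apart, at 3.04 ± 0.477 CPM (counts scaled to library size, SD, n = 3) in NeuN+ nuclei of WT and 3.15 ± 0.197 in those labelled Ogg1-/-. Mutyh counts were higher in the libraries labelled Mutyh-/- (10.1 ± 0.915 CPM) than in WT (1.14 ± 0.0738 CPM). A count over a whole gene does not show whether the deleted exons were read, so the genotypes below are those of the labels.

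Mitochondrial DNA has been copied into nuclear chromosomes repeatedly during evolution, and such copies are called nuclear mitochondrial sequences, or NUMTs. The mitochondrial genome encodes subunits of the respiratory chain and of ATP synthase, and its transcripts are among the most abundant RNAs of neurons. NUMTs use the nuclear genetic code and are as a rule not translated into working proteins, so they are annotated as pseudogenes. RNA read from a recent copy can look the same as RNA from mitochondria.

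On build GRCm38 the 7 annotated genes of the insertion span chr1:24611535-24616197, 4663 bases, and the ends of the insertion itself were not mapped. All 7 lie on the minus strand and are classed as unprocessed pseudogenes in GENCODE release M21. In the direction of transcription they follow the order of the mitochondrial genes they copy. Gm29216 (ENSMUSG00000101249.1, chr1:24615706-24616197, 492 bases) copies the end of mt-Co1, and Gm28661 (ENSMUSG00000102070.1, chr1:24614885-24615565, 681 bases) copies mt-Co2. Both source genes encode catalytic subunits of cytochrome c oxidase, complex IV of the chain. Gm10925 (ENSMUSG00000100862.1, chr1:24613974-24614651, 678 bases) copies mt-Atp6, a proton channel subunit of ATP synthase. Gm28437 (ENSMUSG00000101111.1, chr1:24613189-24613971, 783 bases) copies mt-Co3, a further core subunit of complex IV. Gm28438 (ENSMUSG00000101939.1, chr1:24612775-24613119, 345 bases) copies mt-Nd3, and Gm28439 (ENSMUSG00000100131.1, chr1:24611535-24612410, 876 bases) copies the first part of mt-Nd4. The sources of these last 2 encode membrane subunits of complex I. The seventh annotated gene, Gm10222 (ENSMUSG00000067736.2, chr1:24612407-24612700, 294 bases), copies mt-Nd4l of complex I, overlaps the start of Gm28439 and is not among the 6.

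The copies are nearly letter for letter those of the mitochondrial genes in the reference. Gm28661, Gm10925, Gm28437 and Gm28439 matched their source over their whole length with 100% identity. Gm28438 differed from mt-Nd3 by a single substitution, T3C, and Gm29216 differed from mt-Co1 by a single substitution, A1066T, within the 483 bases that aligned. In these tokens the mitochondrial base comes first, then its position counted from 1 at the first base of the mitochondrial transcript, then the base of the nuclear copy. The stretches printed below hold the only bases of the 6 annotated genes that were found to differ from the source. Sequence between the genes, where part of a read or its mate may lie, was not compared. Bases that differ are in capitals. The copies are read 5′ to 3′ along the minus strand of chromosome 1, and the mitochondrial stretches 5′ to 3′ along their transcripts.
Gm29216, chr1:24616148-24616197: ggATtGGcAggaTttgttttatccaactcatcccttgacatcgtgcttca
mt-Co1, bases 1054 to 1103: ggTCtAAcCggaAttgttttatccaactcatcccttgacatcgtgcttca
Gm28438, chr1:24613070-24613119: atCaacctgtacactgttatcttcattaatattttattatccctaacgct
mt-Nd3, bases 1 to 50: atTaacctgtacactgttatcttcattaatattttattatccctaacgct
The first 9 bases of Gm29216 lie outside the alignment and hold 5 of the 6 capitals.

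For contrast, the first 100 bases of Gm10925, the copy with the largest share of the counts, hold no difference from mt-Atp6.
Gm10925, chr1:24614552-24614651: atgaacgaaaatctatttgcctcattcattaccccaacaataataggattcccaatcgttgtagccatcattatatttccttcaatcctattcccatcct
Reads were 100 bases long at each end. Of the 393 windows of 100 bases within Gm29216, 380 (96.7%) were identical to mt-Co1, and of the 246 windows within Gm28438, 243 (98.8%) were identical to mt-Nd3. In the 4 other genes every window was identical to the source gene. A read from such a window cannot be assigned to the nuclear or the mitochondrial gene by its own sequence. Reads reaching beyond a gene, and the other read of a pair, were not considered. The comparison used the reference sequences, and bases at which the C57BL/6N mice may depart from them were not examined. The 2 count tables hold 0 rows for genes of the mitochondrial chromosome, so mitochondrial transcripts themselves were not analysed here. How much of the counts of these 6 genes came from mitochondrial RNA carried along with the nuclei was not tested.

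The 6 genes were well counted. A single gene had between 73 and 8068 counts in a library, and the 6 together had 4071 to 10657 counts in NeuN+ libraries and 11007 to 23648 in NeuN- libraries. Together they took between 0.00502% and 0.0259% of all counts of a library. All 6 passed the filter on low counts in both nuclear fractions.

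In WT NeuN+ nuclei the summed level of the 6 genes was 158, 124 and 129 CPM in the 3 libraries. In nuclei labelled Mutyh-/- it was 94.1, 114 and 60.9 CPM, in Ogg1-/- nuclei 81.2, 72.8 and 53.8 CPM, and in DKO nuclei 70.1, 75.0 and 50.1 CPM. Every knockout library thus lay below every WT library, and Mutyh-/- replicate 2 came closest to WT. Group means were 137 ± 18.4 CPM in WT and 89.8 ± 27.0, 69.3 ± 14.0 and 65.0 ± 13.2 CPM in Mutyh-/-, Ogg1-/- and DKO (SD, n = 3 each), or 65.4%, 50.5% and 47.4% of WT.

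In NeuN- nuclei the sum was higher and the WT libraries were close together, at 258, 252 and 252 CPM. It was 200, 235 and 163 CPM in Mutyh-/-, 192, 208 and 196 CPM in Ogg1-/- and 223, 208 and 178 CPM in DKO nuclei. Here too each knockout library lay below each WT library. Group means were 254 ± 3.77 CPM in WT and 199 ± 36.1, 199 ± 8.56 and 203 ± 22.7 CPM in the 3 knockouts, or 78.4%, 78.2% and 80.0% of WT. Relative to the WT mean, the drop was thus smaller in NeuN- than in NeuN+ nuclei for each knockout. In CPM this did not hold for Mutyh-/-. The test of the difference on the log2 scale is given below. A lower level in sorted nuclei can come from fewer nuclei of a type that holds the RNA or from less RNA per nucleus. For these genes it can also come from less mitochondrial RNA carried along with the nuclei. Bulk libraries cannot tell these apart, and none was tested.

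**Figure D1:**
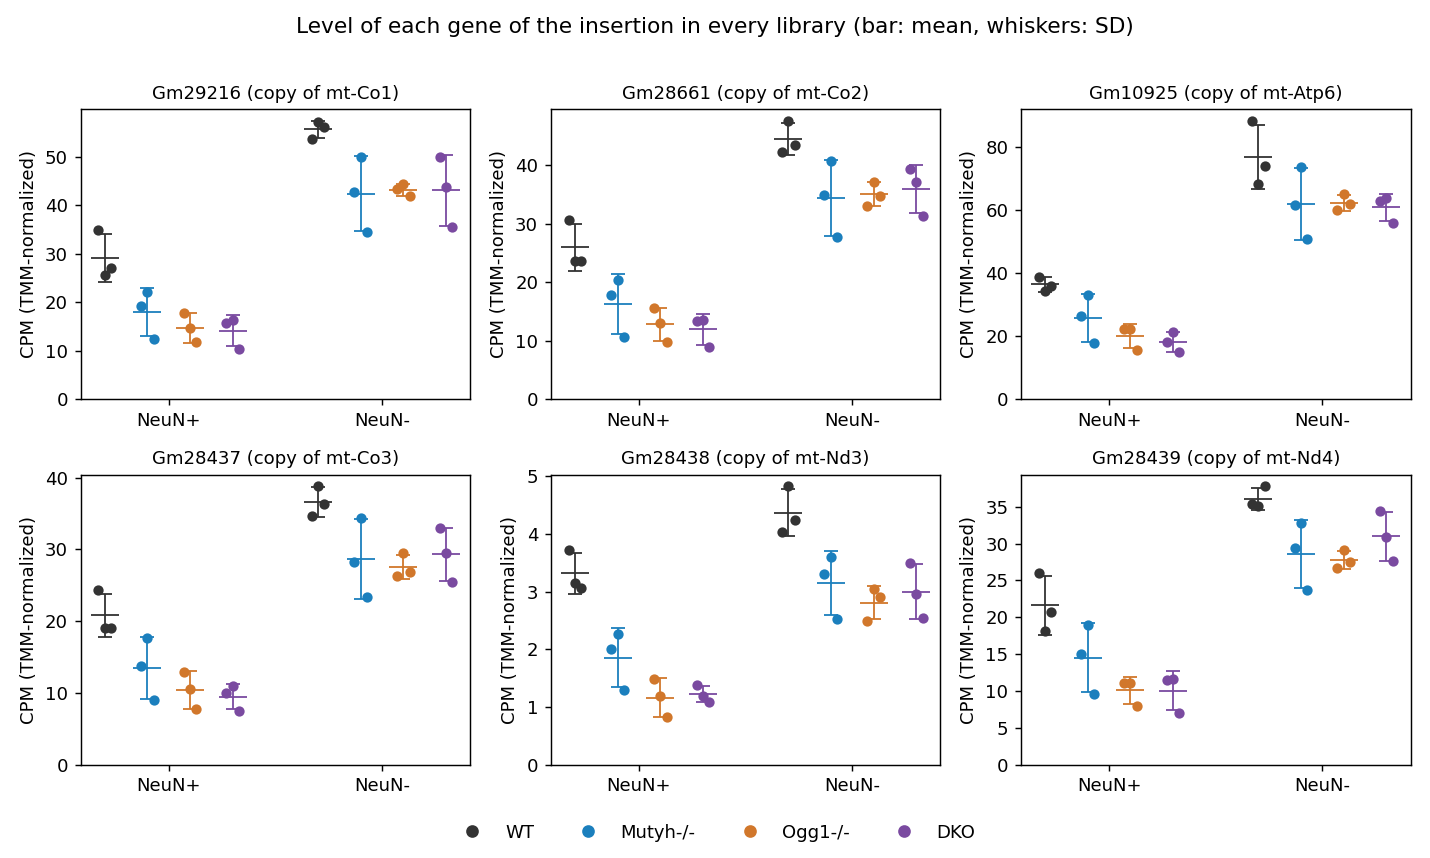
Level of each of the 6 genes in CPM (vertical axis, TMM-normalized within each nuclear fraction) in all 24 libraries, by genotype and nuclear fraction; points are libraries, bars are means and whiskers are SD (n = 3). The WT points lie above the knockout points in each panel except for Gm28439 in NeuN+ and Gm10925 in NeuN-, where Mutyh-/- replicate 2 reaches into the WT range.

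The complex IV copies moved together in NeuN+ nuclei. Gm29216 was at 34.9, 25.7 and 27.1 CPM in WT against 17.8, 14.7 and 11.7 CPM in Ogg1-/- and 15.7, 16.4 and 10.5 CPM in DKO. All 6 of those knockout values lay below the lowest WT value. In Mutyh-/- it was at 19.2, 22.1 and 12.5 CPM, also below WT in each library. In a quasi-likelihood fit with edgeR, with p-values adjusted by Benjamini and Hochberg's method over the 30132 genes tested, the log2 fold change of Gm29216 was -0.99 ± 0.20 (SE) in Ogg1-/- and -1.05 ± 0.20 in DKO (adjusted p = 0.0394).

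Gm28661 was at 30.6, 23.7 and 23.5 CPM in WT, 17.9, 20.3 and 10.6 CPM in Mutyh-/-, 15.6, 13.0 and 9.84 CPM in Ogg1-/- and 13.4, 13.6 and 8.94 CPM in DKO. No knockout library reached the WT range. Gm28437 had the same order of group means, at 20.8 ± 3.04 CPM in WT and 13.5 ± 4.29, 10.4 ± 2.63 and 9.48 ± 1.76 CPM in Mutyh-/-, Ogg1-/- and DKO (SD, n = 3 each). The log2 fold changes of Gm28661 and Gm28437 in DKO were -1.12 ± 0.22 and -1.14 ± 0.21 (SE).

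Gm10925, the copy of mt-Atp6, had the smallest fold change of the 6 in NeuN+ nuclei in each knockout. Its level was 38.8, 34.2 and 36.0 CPM in WT, 26.2, 33.1 and 17.8 CPM in Mutyh-/-, 22.3, 22.2 and 15.7 CPM in Ogg1-/- and 18.1, 21.3 and 15.1 CPM in DKO. The WT range was narrow, and Mutyh-/- replicate 2 lay just below the lowest WT library. The group means were 70.8%, 55.3% and 49.9% of WT in the 3 knockouts, and the log2 fold change in Ogg1-/- was -0.86 ± 0.18 (SE).

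Of the complex I copies, Gm28438 stood out as the one with the lowest log2 fold change in all 6 comparisons of a knockout with WT. In NeuN+ nuclei it was at 3.73, 3.14 and 3.07 CPM in WT, 2.01, 2.27 and 1.29 CPM in Mutyh-/-, 1.48, 1.18 and 0.822 CPM in Ogg1-/- and 1.38, 1.20 and 1.10 CPM in DKO. The highest of the Ogg1-/- and DKO libraries, at 1.48 CPM, was far below the lowest WT library, at 3.07 CPM. Its log2 fold change was -0.85 ± 0.20 in Mutyh-/- (edgeR adjusted p = 0.0648, with those of the other knockouts also in parentheses), -1.53 ± 0.21 in Ogg1-/- (0.00132) and -1.44 ± 0.21 in DKO (0.00407). It is also the least abundant and the shortest of the 6, with 73 to 251 counts per NeuN+ library.

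Gm28439 was at 26.0, 18.1 and 20.7 CPM in WT NeuN+ nuclei, 15.1, 18.9 and 9.65 CPM in Mutyh-/-, 11.1, 11.1 and 8.03 CPM in Ogg1-/- and 11.6, 11.6 and 6.99 CPM in DKO. Its Mutyh-/- libraries overlapped WT, since replicate 2 exceeded the lowest WT library, and the Ogg1-/- and DKO libraries did not. Its log2 fold changes were -0.58 ± 0.22, -1.10 ± 0.22 and -1.11 ± 0.23 (SE).

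A gene was called a DEG when its adjusted p was under 0.05 and its log2 fold change was beyond 0.5 in size. By this rule all 6 genes were called lower in NeuN+ nuclei of Ogg1-/- and all 6 in DKO, and 0 in Mutyh-/-. Over all genes tested, 0.392%, 0.246% and 0.133% were called lower in these comparisons. Since the choice of the 6 may rest on these comparisons, nothing is read from their calls. Adjusted p-values (edgeR) lay between 0.00132 and 0.0366 for Ogg1-/-, between 0.00407 and 0.0439 for DKO and between 0.0648 and 0.182 for Mutyh-/-. In Mutyh-/- all 6 had an unadjusted p under 0.05 (edgeR) and DESeq2 called 1 of them. The highest of these p, 0.0199 for Gm28439, ranked only 3295 among the 30132 genes tested. The share of all genes at an unadjusted p under 0.05 was not counted. Counts at that level, here and below, are therefore descriptions only. The 3 comparisons share their WT libraries. The median log2 fold change of the 6 was -0.66 for Mutyh-/-, -1.01 for Ogg1-/- and -1.11 for DKO, beside a median near 0 (-0.01, 0.01 and 0.00) over all genes tested.

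The calls depended on single libraries. Without any 1 of the WT libraries, or without Ogg1-/- replicate 2 or 3, the 6 calls in Ogg1-/- became 1, and without replicate 1 they became 4. In DKO they became 1 without any 1 of the WT libraries or without DKO replicate 3, 2 without DKO replicate 2, and stayed at 6 without replicate 1. Gm28438 was called in each of these 12 fits. The summed level kept its direction, with log2 ratios between -1.12 and -0.83 for Ogg1-/- and between -1.19 and -0.92 for DKO.

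In NeuN- nuclei 0 of the 6 genes were called in any knockout by edgeR, where 0.107%, 0.1% and 0.0628% of all 31863 genes tested were called lower in Mutyh-/-, Ogg1-/- and DKO. An unadjusted p under 0.05 was reached by 6, 6 and 5 of them, and DESeq2 called 0, 1 and 0. In Mutyh-/- the highest of these p, 0.0235 for Gm10925 (edgeR), ranked only 2610 among all genes tested. Log2 fold changes of the 6 genes lay between -0.47 and -0.31 for Mutyh-/-, between -0.63 and -0.30 for Ogg1-/- and between -0.53 and -0.22 for DKO. Gm28438 was at 4.04, 4.82 and 4.23 CPM in WT and at 2.49, 3.04 and 2.90 CPM in Ogg1-/-, where its log2 fold change was -0.63 ± 0.15 (SE, adjusted p = 0.128 by edgeR). Gm10925 was at 88.1, 68.3 and 73.8 CPM in WT, 61.4, 73.5 and 50.8 CPM in Mutyh-/-, 60.0, 65.0 and 61.7 CPM in Ogg1-/- and 62.8, 63.6 and 55.9 CPM in DKO. Its WT libraries were spread more widely than those of the other 5 genes, and Mutyh-/- replicate 2 lay within their range.

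Counting only order, with all 3 knockout libraries below all 3 WT libraries, 5, 6 and 6 of the 6 genes qualified in NeuN+ nuclei of Mutyh-/-, Ogg1-/- and DKO. Of all genes tested, 10.8%, 10.2% and 9.49% did so. In NeuN- nuclei the same 5, 6 and 6 compared with 10.2%, 10.7% and 9.15% of all genes. The missing gene was Gm28439 in NeuN+ and Gm10925 in NeuN- nuclei of Mutyh-/-. The 6 genes follow each other closely across libraries, so they do not count as 6 separate observations.

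**Figure D2:**
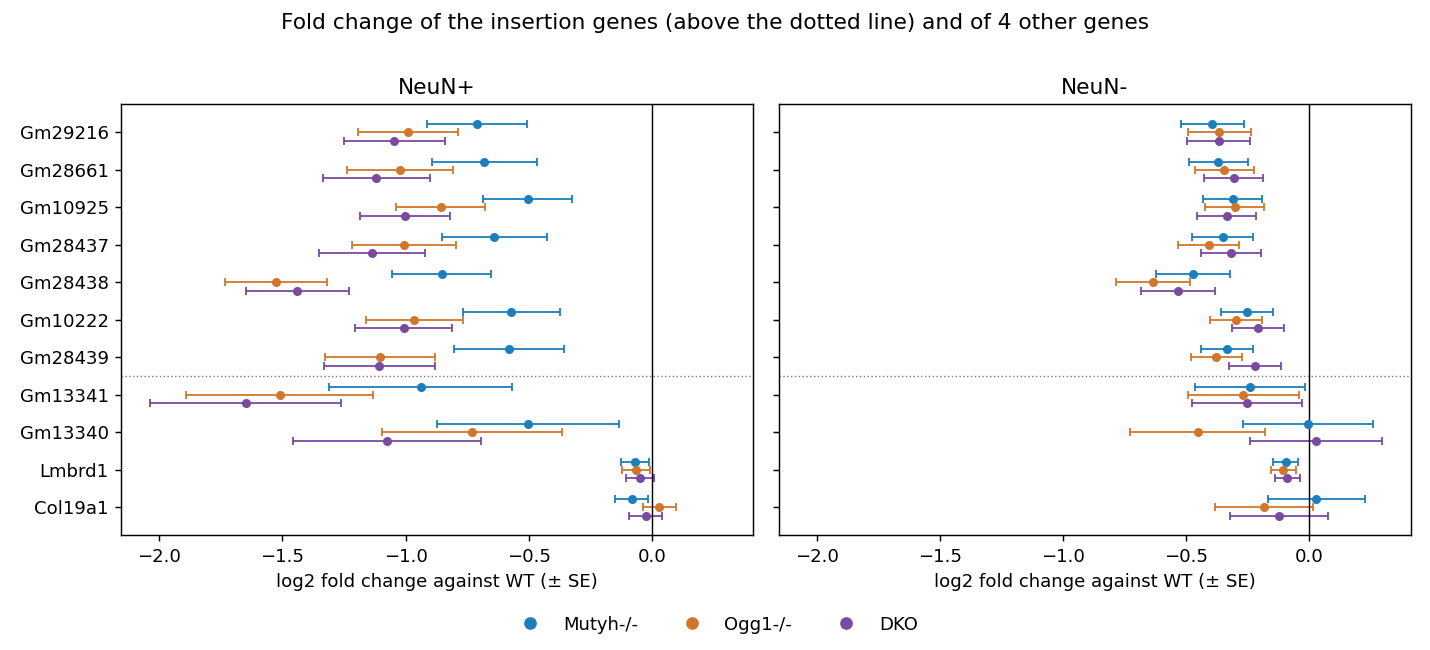
Log2 fold change of each knockout against WT (horizontal axis, ± SE from edgeR) for the 7 genes of the insertion, above the dotted line, and for 2 mitochondrial copies on chromosome 2 (Gm13341, Gm13340) and 2 neighbouring genes (Lmbrd1, Col19a1), in NeuN+ and NeuN- nuclei. All 7 insertion genes lie below 0 in every comparison, further below in NeuN+ nuclei, and both neighbours lie between -0.18 and 0.03.

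The effect of a knockout in NeuN+ nuclei minus its effect in NeuN- nuclei was taken from a fit of all 24 libraries. For Ogg1-/- this difference ran from -0.88 to -0.54 over the 6 genes on the log2 scale, and for DKO from -0.90 to -0.66. In each of these, all 6 had an unadjusted p under 0.05, but 0 passed adjustment over the 33523 genes tested (adjusted p of 0.491 to 0.683 and of 0.287 to 0.445, edgeR). The highest unadjusted p of the 6 ranked 2137 among all genes for Ogg1-/- and 1582 for DKO. For Mutyh-/- the difference ran from -0.39 to -0.21, with 0 of 6 at an unadjusted p under 0.05. DESeq2 called 0 in all 3. Over all genes, 0.0209%, 0.0537% and 0.0567% were called in Mutyh-/-, Ogg1-/- and DKO in either direction. A fit that paired the NeuN+ and NeuN- libraries of a genotype by replicate number also called 0 of the 6 in each knockout. The larger relative drop in NeuN+ nuclei was therefore not shown to differ from that in NeuN- nuclei after adjustment. With the same pairing, which was not established, the summed level in NeuN+ was divided by that in NeuN- nuclei, each scaled within its fraction. The ratio was 0.492 to 0.613 in WT and 0.275 to 0.487 in the 9 knockout pairs, the closest differing by little. The share of all genes with such an order was not counted, so nothing is read from it.

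Between knockouts, DKO and Ogg1-/- had nearly the same levels in NeuN+ nuclei. Their log2 difference was -0.15 to 0.09 over the 6 genes, with SE of 0.18 to 0.23, and the summed levels overlapped. DKO lay below Mutyh-/- by log2 differences of -0.59 to -0.33 and Ogg1-/- below Mutyh-/- by -0.67 to -0.28, with an unadjusted p under 0.05 for 4 and 2 of the genes. None of these was called after adjustment (edgeR), where 0.216%, 0.139% and 0.485% of all genes were called in either direction for DKO against Ogg1-/-, DKO against Mutyh-/- and Ogg1-/- against Mutyh-/-. In NeuN- nuclei the differences between knockouts ran from -0.16 to 0.16, with 0 at an unadjusted p under 0.05 and 0 called, beside 0.132%, 0.122% and 0.521% of all genes.

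Within WT, the 6 genes were lower in NeuN+ than in NeuN- nuclei when all 24 libraries were scaled together. The summed level was 149 ± 21.0 CPM in NeuN+ and 232 ± 4.13 CPM in NeuN- (SD, n = 3 each), and the 2 groups did not overlap. The log2 difference of NeuN+ from NeuN- was -0.84 ± 0.17 (SE) for Gm10925, -0.69 ± 0.19 for Gm29216, -0.57 ± 0.19 for Gm28437, -0.53 ± 0.19 for Gm28661 and -0.50 ± 0.19 for Gm28439. These 5 had adjusted p-values of 0.000162 to 0.0270 (edgeR), and 36.3% of all genes tested were lower in NeuN+ at an adjusted p under 0.05. For Gm28438 it was -0.15 ± 0.18 (adjusted p = 0.471). With an absolute log2 difference above 1 also required, 0 of the 6 were called by edgeR and 0 by DESeq2, where 21.6% of all 33523 genes were called lower in NeuN+.

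Levels can be compared between genes only per length, as FPKM (CPM per kilobase of gene length). In WT NeuN+ nuclei Gm29216 was at 59.4 ± 10.1 FPKM and Gm10925 at 53.6 ± 3.43 FPKM, and these 2 overlapped. Gm28661 followed at 38.1 ± 5.88 FPKM, close to Gm10222 at 38.5 ± 6.28 FPKM. Gm28437 at 26.6 ± 3.88 FPKM and Gm28439 at 24.7 ± 4.55 FPKM overlapped each other. Gm28438 was lowest at 9.61 ± 1.04 FPKM (SD, n = 3 each).

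The order was the same in all libraries but for these close pairs. In each of the 24 libraries Gm29216 and Gm10925 held the first 2 ranks among the 6, Gm28661 was at rank 3 and Gm28438 at rank 6. In NeuN- WT nuclei Gm29216 and Gm10925 were both at 113 FPKM (SD 3.56 and 15.1), Gm28661 at 65.3 ± 4.08, Gm28437 at 46.7 ± 2.69, Gm28439 at 41.2 ± 1.69 and Gm28438 at 12.7 ± 1.18 FPKM. The genes at the 5′ end of the insertion were thus not uniformly above those at its 3′ end, since Gm10222 exceeded the Gm28437 and Gm28438 genes before it.

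**Figure D3:**
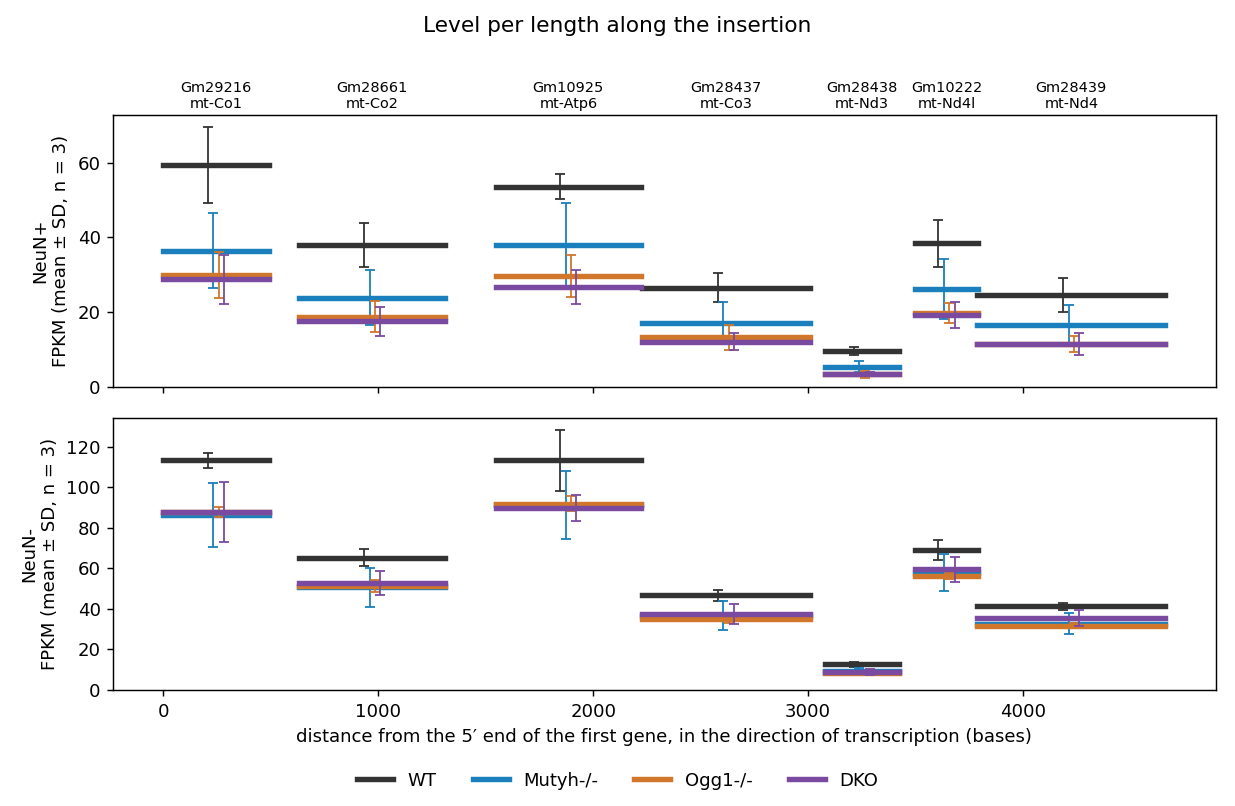
Level per length in FPKM (vertical axis, mean ± SD, n = 3) of the 7 annotated genes against their distance in bases from the 5′ end of the first gene, in the direction of transcription, for NeuN+ (top) and NeuN- nuclei (bottom); each horizontal bar spans 1 gene. The profile has the same shape in all 4 genotypes, highest at Gm29216 and Gm10925 and lowest at Gm28438.

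The genes kept nearly fixed proportions to each other. Of the summed CPM, Gm10925 made up 28.1% ± 1.71 (SD over 12 libraries) in NeuN+ and 30.7% ± 1.79 in NeuN- nuclei, and Gm29216 21.1% ± 0.912 and 21.5% ± 0.827. Gm28661 made up 18.4% and 17.5%, Gm28439 15.4% and 14.5%, and Gm28437 14.9% and 14.3%. Gm28438 varied most for its size, from 1.53% to 2.54% in NeuN+ and from 1.30% to 1.92% in NeuN- libraries. Its share of the sum in NeuN+ nuclei was 2.42% ± 0.100 in WT, 2.08% ± 0.0814 in Mutyh-/-, 1.66% ± 0.153 in Ogg1-/- and 1.92% ± 0.297 in DKO (SD, n = 3 each). All knockout libraries were below the lowest WT share of 2.36%.

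Across the 12 NeuN+ libraries, Pearson's r of log2 CPM ranged from 0.945 to 0.996 over the 15 pairs of the 6 genes (median 0.977). With each genotype's mean removed it still ranged from 0.839 to 0.992. In NeuN- nuclei r ranged from 0.759 to 0.984 (median 0.926), and from 0.517 to 0.986 with group means removed. The values of a library share its depth and scaling, so these are descriptions. In NeuN+ Mutyh-/- nuclei, for example, replicate 3 had the lowest value of its group for every gene. This did not hold in every group, since in WT NeuN- nuclei Gm10925 was highest in replicate 1, where Gm29216, Gm28661, Gm28437 and Gm28438 were lowest.

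Gm10222, the seventh gene of the insertion, had the most similar pattern to the summed 6 of all genes tested, with r of 0.988 over the 12 NeuN+ and 0.940 over the 12 NeuN- libraries. It was at 11.3 ± 1.85 CPM in WT NeuN+ nuclei and at 7.69 ± 2.35, 5.81 ± 0.813 and 5.64 ± 1.02 CPM in Mutyh-/-, Ogg1-/- and DKO (SD, n = 3 each). Its log2 fold changes were -0.57, -0.96 and -1.01, with the last 2 called. In NeuN- nuclei they were -0.25, -0.30 and -0.21, with 0 called.

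The next 4 most similar genes in NeuN+ nuclei were Atp6v1g2, a subunit of the vesicular proton pump (r = 0.980), Sod1, the cytosolic superoxide dismutase (r = 0.979), Pja2, a ubiquitin ligase (r = 0.976), and Usp9x, a deubiquitinase (r = 0.974). In NeuN- nuclei they were Saraf, a regulator of store-operated calcium entry (r = 0.937), Gng3, a G protein subunit (r = 0.934), Atp5a1, a nuclear-encoded subunit of ATP synthase (r = 0.932), and Eid1 (r = 0.924). No gene other than Gm10222 was in both sets of 5.

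None of the genes around the insertion was called. Of 11 genes annotated within 500 kb on either side, 5 were tested in NeuN+ and 4 in NeuN- nuclei, and none passed in any comparison of a knockout with WT, where 1 had an unadjusted p under 0.05 in NeuN+ Mutyh-/- and 0 in the rest. That gene was Col9a1, a collagen gene with 10 to 38 counts per NeuN+ library, whose log2 fold changes were -0.88 ± 0.31, -0.17 ± 0.28 and -0.36 ± 0.29 (SE) in the 3 knockouts. Col19a1, a collagen gene whose annotated 5′ end lies 24063 bases away, was at 65.2 ± 5.73 CPM in WT NeuN+ nuclei. Its log2 fold changes were -0.08, 0.03 and -0.02 in Mutyh-/-, Ogg1-/- and DKO. Lmbrd1, which encodes a lysosomal cobalamin transporter and lies 62433 bases away, was at 90.7 ± 5.21 CPM with log2 fold changes of -0.07, -0.06 and -0.05. Adgrb3, an adhesion receptor of synapses, had 0.11, 0.00 and 0.06. The processed pseudogene Tubb4b-ps2, the nearest at 16112 bases, had only 8 to 26 counts per NeuN+ library and log2 fold changes of -0.54, -0.05 and 0.15. The patterns of the neighbours and of the 6 genes were not tested against each other.

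Few mitochondrial copies elsewhere were found among annotated transcripts, and their counts were low. Copies outside annotated transcripts were not searched for. Of all annotated transcripts, those of 8 genes outside the insertion aligned to a mitochondrial gene over at least 200 bases at 90% identity or more, and 2 of them passed the filter on low counts. Both are on chromosome 2. Gm13341 (chr2:22587291-22587962, 95.9% identical to mt-Co2) had 9 to 60 counts per NeuN+ library, and its log2 fold changes were -0.94 ± 0.37, -1.51 ± 0.38 and -1.65 ± 0.39 (SE), with adjusted p of 0.194, 0.0736 and 0.0847 (edgeR). Gm13340 (chr2:22588103-22589647, 97.6% identical to mt-Co1) had 12 to 46 counts, and its log2 fold changes were -0.50, -0.73 and -1.08. Neither was called in any comparison of a knockout with WT. In NeuN- nuclei the 2 genes had log2 fold changes between -0.45 and 0.03.

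The nuclear-encoded partners of the copied proteins in complex IV and ATP synthase were measured in the same libraries. Those in complex I, whose genes Gm28438, Gm28439 and Gm10222 copy, were not listed here. All 10 listed nuclear-encoded subunits of complex IV had log2 fold changes below 0 in NeuN+ nuclei of each knockout, with a median of -0.14 for Mutyh-/- and of -0.23 for both Ogg1-/- and DKO. Cox5b was the single one called, in Ogg1-/- (log2 fold change -0.59), and 3, 7 and 7 had an unadjusted p under 0.05. Of 15 nuclear-encoded ATP synthase subunits, 13 were below 0 in each knockout, with medians of -0.17, -0.18 and -0.18 and 0 called, and 4, 10 and 11 had an unadjusted p under 0.05. In NeuN- nuclei the medians of these lists lay between -0.08 and -0.03, with 0 called by edgeR and at most 3 of a list at an unadjusted p under 0.05. In WT both lists had median log2 differences above 0 in NeuN+ against NeuN- nuclei (0.29 and 0.38), on the other side of 0 from the 6 genes, with 0 called by the threshold of 1 and 7 and 13 at an unadjusted p under 0.05.

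Genes that act on mitochondrial transcription and RNA, such as the polymerase Polrmt, the DNA-packaging factor Tfam and the RNA-binding Lrpprc and Slirp, lay near 0. Of the 14 of 15 found in the table, 0 were called in any knockout, 0, 1 and 1 had an unadjusted p under 0.05 in NeuN+ nuclei, and medians there were -0.01, 0.02 and -0.01. The lowest in NeuN+ Ogg1-/- was Slirp, at -0.27. RNAs known to stay in nuclei, such as Malat1, Neat1 and Meg3, had medians of 0.05, 0.13 and 0.08 over 8 genes in NeuN+ nuclei, with 0 called and 3, 4 and 3 at an unadjusted p under 0.05. Neat1 was the lowest of them in Mutyh-/- and DKO, at -0.34 and -0.71, and the highest in Ogg1-/-, at 0.25. In NeuN- nuclei the medians of this list were 0.04, -0.15 and -0.14, with 3, 6 and 6 of 8 below 0 and 0 called.

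**Figure D4:**
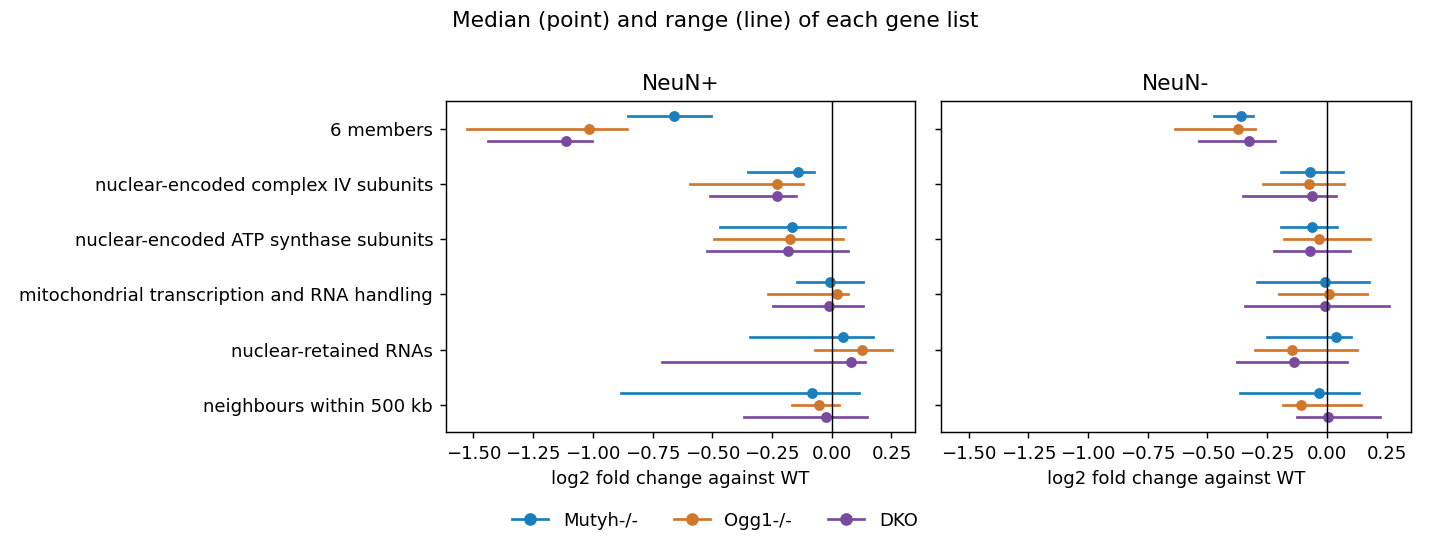
Median (point) and range (line) of log2 fold changes against WT (horizontal axis) for the 6 genes and 5 other gene lists, in NeuN+ and NeuN- nuclei. The 6 genes lie wholly below 0 in each comparison, the complex IV list does so in NeuN+ nuclei only, and the medians of the lists for mitochondrial RNA handling, nuclear-retained RNAs and neighbours lie between -0.15 and 0.13.

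Markers of other cell types were summed in the same way, since NeuN+ libraries can hold RNA of glia. Astrocyte markers had log2 fold changes below 0 for 6 of 6 genes in NeuN+ nuclei of each knockout (medians -0.22, -0.10 and -0.25, 0 called), and their summed level was 273 to 328 CPM for WT, 267 to 276 for Mutyh-/-, 252 to 311 for Ogg1-/- and 248 to 297 CPM for DKO. Precursors of oligodendrocytes had 3 of 3 below 0 (medians -0.55, -0.20 and -0.47, 0 called), at 2.32 to 3.18 CPM in WT and 1.66 to 3.03 CPM in the knockouts. Choroid plexus markers, of which 3 of 5 were tested, had medians of -0.60, -0.96 and -0.77, at 12.8 to 20.9 CPM in WT and 9.91 to 13.9 CPM in the knockouts. They did not move alike, with Ttr lowest, at -1.92, -1.52 and -0.99, and Kl highest, at 0.01, -0.13 and 0.00. In WT, 4 of the 5 were called lower in NeuN+ than in NeuN- nuclei, and Kl had the highest log2 difference, at 1.02. Oligodendrocyte markers had medians of -0.19, 0.01 and -0.43, with 3, 2 and 4 of 5 below 0 and 0, 1 and 3 at an unadjusted p under 0.05. In DKO the lowest was Mag, at -0.47, and Mbp alone was above 0, at 0.10. The summed oligodendrocyte level (110 to 114 CPM in WT, 107 to 128 in knockouts) overlapped WT. Microglial markers had medians of 0.04, 0.00 and -0.01, and their sum overlapped WT too (78.2 to 79.2 CPM in WT, 78.2 to 83.4 in knockouts). Endothelial markers, of which 2 of 3 were tested, had medians of -0.10, 0.04 and -0.19, at 1.41 to 2.26 CPM in WT. Neuronal markers were summed as well. Their level spanned 5707 to 5976 CPM in WT. It spanned 6046 to 6742 CPM in Mutyh-/-, 5812 to 6242 CPM in Ogg1-/- and 6018 to 6309 CPM in DKO. The share of all genes with every knockout library above WT was not counted, so nothing is read from this order. Of the 8 genes, 2, 5 and 5 were below 0 (medians 0.06, -0.09 and -0.05). An unadjusted p under 0.05 was reached by 5, 2 and 4. Gad2 was lowest in each knockout, at -0.36, -0.19 and -0.30, and Rbfox3 highest, at 0.18, 0.12 and 0.21. None of these lists held a called gene.

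In NeuN- nuclei several marker lists had medians away from 0. Neuronal markers lay below 0 for 8, 7 and 8 of 8 genes (medians -0.13, -0.24 and -0.27, 0 called), at 806 to 906 CPM for WT, 797 to 817 for Mutyh-/-, 744 to 834 for Ogg1-/- and 721 to 816 CPM for DKO. Oligodendrocyte markers lay below 0 for 3, 5 and 5 of 5 genes (medians -0.06, -0.22 and -0.22, 0 called), and those of their precursors for 3 of 3 genes in each knockout (medians -0.01, -0.10 and -0.14). Astrocyte markers were on the other side, above 0 for all 6 genes in Ogg1-/- and in DKO (medians 0.25 in both, and 0.02 in Mutyh-/-), and Aldh1l1 was called higher in Ogg1-/- (log2 fold change 0.52). Choroid plexus markers differed most, with medians of -1.16, 0.61 and 1.17 and 0 called. Their sum ran from 37.3 to 67.3 CPM in WT, 20.0 to 24.7 CPM in Mutyh-/-, 10.3 to 108 CPM in Ogg1-/- and 7.81 to 241 CPM in DKO. Microglial medians were 0.07, -0.08 and -0.03, and endothelial medians -0.10, -0.21 and 0.10. The part of these cells in the levels of the 6 genes was not tested.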

How the data were processed

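Nuclear RNA from 24 libraries was analysed. Per the labels and the study's methods, the authors aligned paired reads to GRCm38/mm10 with HISAT2 2.1.0, processed them with SAMtools 1.10 and counted properly aligned pairs with featureCounts against Ensembl release 102, and they deposited raw counts per gene. Handling of strand, overlapping genes and reads with several alignments is not given in the sources used here, so the counts of these near-identical copies are uncertain.

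Counts were fitted within each nuclear fraction (30132 genes in NeuN+, 31863 in NeuN-) and over all 24 libraries (33523 genes) with edgeR 4.0.16 in R 4.3.3, using filterByExpr, TMM factors, the quasi-likelihood test and Benjamini-Hochberg adjustment. For DEGs between genotypes the adjusted p is under 0.05 and the log2 fold change beyond 0.5 in size, for those between fractions beyond 1, and the difference of effects uses the adjusted p alone. The same fits were checked on simulated counts. Transcript sequences and positions are those of GENCODE release M21, on the build of the files. Each copy was aligned with Biopython 1.88 to the 37 mitochondrial transcripts, and other copies were searched among annotated transcripts with blastn 2.17.0. Alternatives were other scaling, filters, tests (DESeq2 1.42.0), a replicate block, fits of only the groups compared and leaving out each library.

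The 6 genes and all lists were chosen with earlier results of these data known. The genes named are the 6, those within 500 kb, other mitochondrial copies that were tested, the 5 with the highest Pearson's r to the summed 6 (log2 of CPM + 0.01), and the highest or lowest of each list. Genes of the mitochondrial chromosome were also planned for, but the tables used here hold 0 rows for them.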

Additional observations from a re-analysis of the deposited data

How the results depend on the processing

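Directions held under all alternatives: no fold change of the 6 genes and no summed level changed sign. Besides the fits that leave out a library, 309 fold changes stayed on their side of the threshold and 15 passed it newly. With a library left out, 165 stayed and 51 no longer passed. In NeuN+ Mutyh-/-, where edgeR's quasi-likelihood test called 0 of the 6, DESeq2 called 1, the likelihood ratio test 2, a fit with no low-count filter 5, a fit of only the groups compared 1 and a fit with the replicate number as a block 3. In NeuN- Ogg1-/-, DESeq2, the likelihood ratio test and a fit of only the groups compared each called 1 instead of 0. Scaling by library totals gave 1 call instead of 0 between WT fractions and a summed log2 difference of -0.88 instead of -0.64. The cause of these changes was not tested. With a library left out, calls ranged from 1 to 4 in NeuN+ Ogg1-/- and from 1 to 6 in NeuN+ DKO, and were 0 in the other comparisons.

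The mean correlation of the deviations of same-numbered libraries was -0.005 between genotypes in NeuN+ and 0.043 in NeuN-. Between the fractions of a genotype it was 0.111, with all 12 pairs above 0 (lowest 0.011) and 6 above 0.1, a hint of pairing in the data. For libraries of different number it was -0.055, which adds no further evidence, since the deviations of a group sum to 0. Since not every pair exceeded 0.1, the numbers were not taken as pairs, and the block moved no other count of calls by over 1.5 times. The planned counts over genes of the mitochondrial chromosome could not be computed, and these genes were not analysed here. Each of the 6 genes had at least 73 counts in every library.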
